A study of Mus musculus with 22 samples.

Results

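The immediate early genes described here are Fos, Fosb, Jun, Junb, Egr1, Egr2, Arc, Nr4a1, Ier2 and Dusp1, measured in whole mouse brain at embryonic day 15 (E15) and postnatal day 1 (P1). They were taken as every probe whose gene name in the per-array scanner files is one of these symbols, which gave 13 probes for the 10 genes, out of 41174 probes and 21046 named genes in all. Immediate early genes are transcribed within minutes of a stimulus without new protein synthesis, mostly through the transcription factors SRF and CREB acting downstream of MAP kinase and calcium signalling. Most encode transcription factors that switch on later genes, and others encode feedback inhibitors or synaptic proteins. In the mature brain their RNA follows neuronal activity, and in the embryo it also follows growth factor signalling.

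Each of 22 dual-colour arrays carried RNA labelled AGTR2 knockout in one dye and control RNA of the same age in the other. AGTR2 is the angiotensin II type 2 receptor. At E15 there were 14 arrays, for 8 numbered knockouts and 6 numbered controls, and at P1 there were 8 arrays, for 4 numbered knockouts and their controls. RNA of both groups came from frozen whole-brain slices, and the labels name no treatment. Strain, sex, mutant allele and litter are not given in the sources used here, nor is the genotype of the controls beyond that word. All levels below are log2 intensities after background correction with an offset of 50, which compresses dim probes, and differences are on the log2 scale.

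The Agtr2 probe itself did not separate the labels. Its level ran from 6.16 to 9.19 in the E15 controls and from 6.22 to 7.09 in the E15 knockouts. The 9.19 was control 1, and the next highest E15 control was at 6.98. The probe's log2 knockout over control was below 0 in 6 of 8 E15 replicates and 1 of 4 P1 replicates (limma adjusted p = 0.785 and 0.715). The lowest E15 ratios, -2.10 and -1.24, were in replicates 4 and 1, each with an array against control 1, and replicate 7 was at -0.00079. Where this probe lies relative to the deleted part of the gene is not given in the sources used here, so it does not check the labels. E15 and P1 arrays were scanned in separate series with different versions of the scanner software, so age and scan series cannot be told apart. The E15 arrays were scanned on 3 days. E15 control 1 and knockout 8 stood apart from the other brains: the mean log2 level of 12 of 12 markers of meninges and fibroblasts was 10.66 in control 1 and 10.98 in knockout 8 against medians of 8.68 and 8.44, and that of 8 of 12 skeletal muscle markers was 11.76 and 10.53 against 7.81 and 7.69. Forebrain markers (11 of 12) were lowest in control 1 at 7.34 and in knockout 4 at 7.40, against medians of 8.61 and 8.68. At P1 the control RNAs of a replicate's 2 arrays differed by 0.46 to 2.72 in Hoxb5, a gene of hindbrain and spinal cord, and those of the knockouts by 0.13 to 0.86, ranges that overlap. The P1 controls are not numbered in the labels, so a P1 control value is the mean of the control channels on 1 replicate's arrays and may hold more than 1 brain.

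Control brains of the 2 ages were compared to ask which immediate early genes differ between late gestation and birth. Junb, Ier2 and Dusp1 fell from E15 to P1 in control brains, with log2 differences of -1.52, -0.86 and -0.71. No member rose. Thus 3 of 10 members were called lower and 0 called higher, where 22.6% of 24690 features were called lower and 12.6% higher, so the members' share lies near that of all features. The median member differed by -0.16 and the median feature by -0.09. In 3 of 10 members all 4 P1 values lay below all 6 E15 values, which 17.8% of 23873 features with complete values also showed. In bulk tissue, fewer cells of a type and less RNA per cell cannot be told apart.

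**Figure D1:**
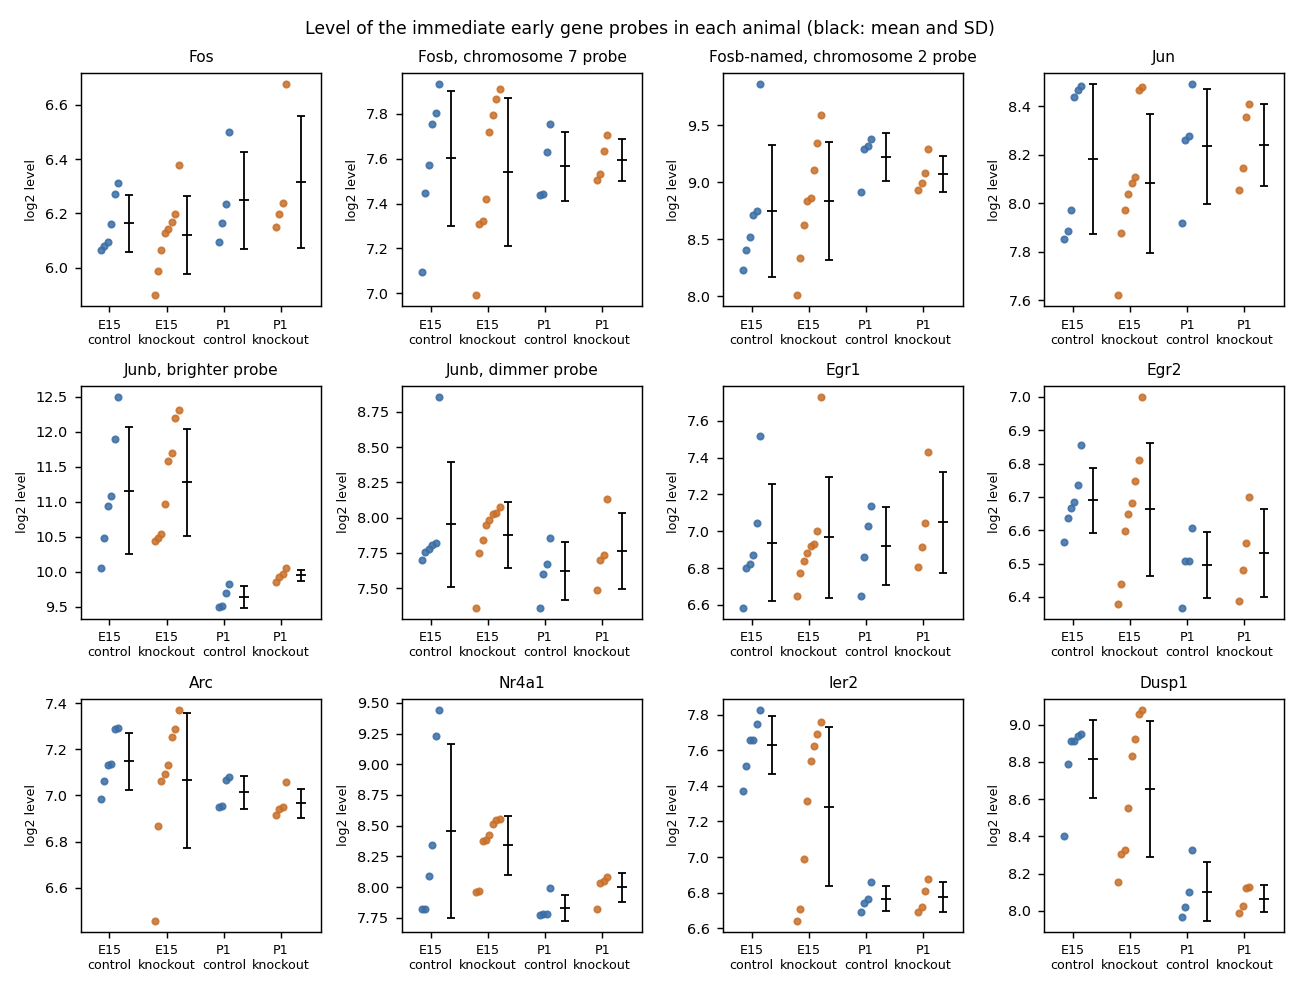
Log2 level of each immediate early gene probe (y axis, a scale of its own per panel) in each animal, for control (blue) and knockout (orange) brains at E15 and P1, with the group mean and SD in black beside the points. Junb by its brighter probe and Dusp1 lie lower in every P1 animal than in every E15 animal of the same label, and Ier2 does so among controls.

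Ier2, a nuclear protein induced by growth factors, showed the most even fall. Its level in E15 controls 1 to 6 was 7.83, 7.37, 7.66, 7.51, 7.75 and 7.66, and in the P1 controls 6.77, 6.75, 6.86 and 6.69. All P1 controls were below all E15 controls, and each group was tight. The means were 7.63 ± 0.16 (SD, n = 6) and 6.77 ± 0.07 (SD, n = 4), a 1.82-fold fall (log2 difference -0.86, SE 0.09, limma adjusted p = 8.5e-05). This call was made in all 23 alternatives tried, with adjusted p from 2.26e-05 to 0.00395. The E15 knockouts were more spread, with values from 6.64 to 7.76 and a median of 7.43, and knockouts 3, 4 and 6 lay at 6.64, 6.71 and 6.99. Knockouts 3 and 4 have 1 array each, so the average dye effect at this age was subtracted from their values. The P1 knockouts lay at 6.72, 6.81, 6.69 and 6.87, so the groups overlapped, and the knockout difference of -0.51 did not pass the test (SE 0.21, adjusted p = 0.0942). It passed in 6 of 26 alternatives, among them without knockout 3 (-0.60, adjusted p = 0.0346), without knockout 4 (-0.59, adjusted p = 0.0452) and on the E15 arrays of scan days 1 and 2 (-0.72, adjusted p = 0.0121). On those of day 3 it was -0.30 (adjusted p = 0.338). A further Ier2 probe was well above background on only 7 of 14 E15 and 3 of 8 P1 control channels and was not tested.

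Dusp1, the phosphatase that dephosphorylates MAP kinases and so closes the loop that induces these genes, fell in both labels. The E15 controls lay at 8.95, 8.91, 8.94, 8.40, 8.79 and 8.91, and the P1 controls at 7.97, 8.1, 8.02 and 8.32. Control 4 was the lowest at E15 and still above every P1 value. The control means were 8.82 ± 0.21 (SD, n = 6) and 8.1 ± 0.16 (SD, n = 4), a 1.64-fold fall (log2 difference -0.71, SE 0.12, adjusted p = 0.00118), called in all 23 alternatives. Among knockouts the E15 values ran from 8.16 to 9.08 with a median of 8.69, above the 4 P1 values of 8.13, 7.99, 8.12 and 8.02, with the closest values next to each other. The knockout difference was -0.59 (SE 0.17, adjusted p = 0.0265), and it did not pass when any 1 of the 4 P1 knockouts was left out (-0.61 to -0.56, adjusted p from 0.0527 to 0.0717). Against the E15 arrays of scan days 1 and 2 it was -0.36 (adjusted p = 0.114), and against those of day 3 it was -0.85 (adjusted p = 0.00159). With scan day as a random block it was -0.56 and did not pass (adjusted p = 0.106).

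Junb, an AP-1 subunit that pairs with Fos proteins, had the widest difference and the least steady E15 level. By its brighter probe the E15 controls lay at 11.90, 12.50, 10.95, 10.06, 10.48 and 11.08 and the P1 controls at 9.83, 9.71, 9.5 and 9.52. E15 controls 1 and 2 were high, control 4 low, and no P1 control average reached the E15 range. Single channels of the ages did overlap. In Cy3, E15 control 4 read 9.51 on day 1 and the control of P1 replicate 1 read 9.60. The means were 11.16 ± 0.90 (SD, n = 6) and 9.64 ± 0.16 (SD, n = 4), a 2.87-fold fall (log2 difference -1.52, SE 0.40, adjusted p = 0.0143). Among knockouts the E15 range was 10.44 to 12.30 and the P1 values were 10.05, 9.93, 9.97 and 9.86, again without overlap (difference -1.32, SE 0.36, adjusted p = 0.0163). The dimmer Junb probe, whose position shares 22 bases with the brighter one, gave -0.33 in controls (SE 0.21, adjusted p = 0.25) and -0.11 in knockouts (adjusted p = 0.588), with overlapping groups. Per coordinates in the P1 files, whose build is not stated, the brighter probe lies at 84245123 to 84245182 and the dimmer at 84245161 to 84245220 on chromosome 8, both on the minus strand.

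The brighter Junb probe moved with the day of scanning. All 12 E15 channels of scan day 3 lay between 11.58 and 12.72, and all 16 of days 1 and 2 between 9.51 and 11.23, with no overlap. RNA of control 3, labelled with the same dye, read 9.75 on day 1 and 11.94 on day 3, a difference of 2.19 that only 0.412% of 33953 probes exceeded. Control 6 likewise read 10.57 on day 2 and 11.58 on day 3. The dimmer probe differed by 0.07 and 0.14 in the same pairs of arrays. The fall to P1 by the brighter probe was -0.80 against the E15 arrays of days 1 and 2 alone (SE 0.15, adjusted p = 0.0031) and -2.38 against those of day 3 alone (SE 0.16, adjusted p = 1.21e-05). With scan day as a random block it was -1.52 in controls (adjusted p = 0.051) and -1.23 in knockouts (adjusted p = 0.0565), so neither passed.

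**Figure D2:**
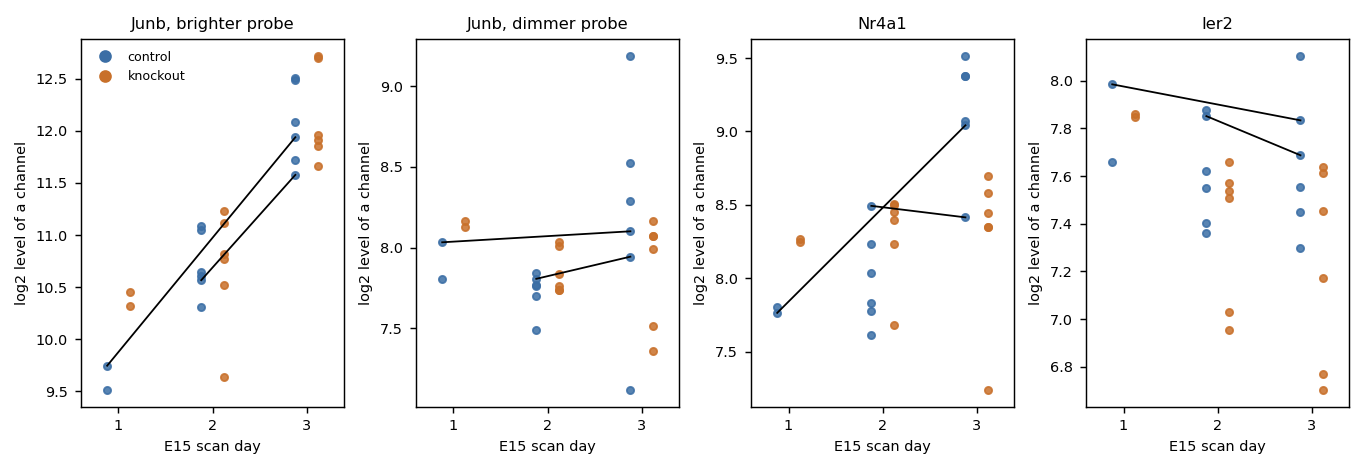
Log2 level of single E15 channels (y axis) by scan day (x axis) for both Junb probes, Nr4a1 and Ier2, with control channels in blue and knockout channels in orange. Black lines join the same control RNA in the same dye on different days (control 3 on days 1 and 3, control 6 on days 2 and 3); the brighter Junb probe reads 2.19 and 1.01 higher on day 3.

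The other AP-1 genes passed the test in neither label. Jun, the partner that most Fos proteins bind, was spread alike at both ages, with E15 controls from 7.85 to 8.48 and P1 controls of 8.26, 7.92, 8.28 and 8.49. Its control difference was 0.05 (95% interval -0.31 to 0.42, adjusted p = 0.83). Fos, the prototype of the family, was dim: its probe was well above background on 10 of 14 E15 and 8 of 8 P1 control channels, with E15 controls from 6.07 to 6.31 and P1 controls of 6.09, 6.17, 6.23 and 6.50. The groups overlapped, and the difference of 0.08 (adjusted p = 0.494) became 0.68 with the scanner's own processed signals, which carry no offset (adjusted p = 0.103).

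Fosb, a Fos relative that accumulates with repeated stimulation, was named on a pair of probes that do not belong to 1 place. One lies on chromosome 7 at 16172371 to 16172430, the chromosome of Fosb in the mouse RefSeq annotation. The other, brighter one lies on chromosome 2 at 104131359 to 104131418 and is named Fosb in the E15 files, while the P1 files give it only as a cDNA clone. The chromosome 7 probe gave E15 controls from 7.10 to 7.93 and P1 controls of 7.75, 7.44, 7.44 and 7.63, a difference of -0.03 (SE 0.15, adjusted p = 0.877). The chromosome 2 probe gave E15 controls from 8.23 to 9.87, with control 1 far above the rest, and P1 controls of 9.32, 8.91, 9.29 and 9.38. Its difference of 0.48 did not pass (SE 0.27, adjusted p = 0.191) but did without control 1 (0.70, adjusted p = 0.00253), and also on the arrays of scan days 1 and 2 (0.64, adjusted p = 0.0064). Because the summary values below use the brighter probe of a gene, the entry named Fosb in them is this chromosome 2 probe.

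Nr4a1, an orphan nuclear receptor induced by calcium and growth factors, passed the test in neither label. The E15 controls lay at 9.45, 9.23, 8.09, 7.82, 7.82 and 8.34, and the P1 controls at 7.77, 7.99, 7.78 and 7.78. E15 controls 1 and 2 were high, and controls 4 and 5 lay within the P1 range. The difference was -0.63 (SE 0.32, adjusted p = 0.148) in controls and -0.34 (SE 0.13, adjusted p = 0.0628) in knockouts, where it passed without E15 knockout 1 (-0.39, adjusted p = 0.024) or 6 (-0.40, adjusted p = 0.0233). Scan day moved with this gene as well: control 3 RNA in the same dye read 7.76 on day 1 and 9.04 on day 3, while control 6 read 8.49 and 8.41 on days 2 and 3. Against E15 arrays of day 3 alone the control difference was -1.18 (adjusted p = 0.00134), and against those of days 1 and 2 it was -0.11 (adjusted p = 0.529).

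Egr1 and Egr2 are zinc finger factors, Egr1 a general marker of neuronal activity and Egr2 a factor of hindbrain segments and Schwann cells. Egr1 in the E15 controls ran from 6.58 to 7.52 with a median of 6.84, and the P1 controls lay at 6.86, 7.14, 7.03 and 6.65, wholly within that range (difference -0.02, SE 0.17, adjusted p = 0.937). Its highest E15 values, 7.52 in control 1 and 7.73 in knockout 8, were in the brains richest in muscle and meninges markers; the part of those tissues in its level was not tested. Egr2 in the E15 controls ran from 6.57 to 6.85, and the P1 controls lay at 6.51, 6.51, 6.61 and 6.37, with 1 P1 value inside the E15 range. Its difference of -0.19 (SE 0.07, adjusted p = 0.0603) passed without E15 control 3 (-0.22, adjusted p = 0.0498) and with quantile normalization of all channels (-0.20, adjusted p = 0.0469).

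Arc, a synaptic protein that drives removal of glutamate receptors, varied least between animals of the P1 groups. The E15 controls ran from 6.98 to 7.29 and the P1 controls lay at 7.06, 7.08, 6.96 and 6.95, with overlap. The difference was -0.14 (SE 0.08, adjusted p = 0.188) in controls and -0.10 (adjusted p = 0.635) in knockouts, where knockout 8 was lowest at 6.46.

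Among the knockouts as a whole, 2 of 10 members, Junb and Dusp1, fell from E15 to P1 and 0 rose, against 15.7% of 24690 features called lower and 10.9% called higher. With scan day as a random block neither was called (Junb -1.23, adjusted p = 0.0565; Dusp1 -0.56, adjusted p = 0.106). The median member differed by -0.12 and the median feature by -0.08. Control and knockout channels come from the same arrays, so these comparisons are not independent of each other.

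**Figure D3:**
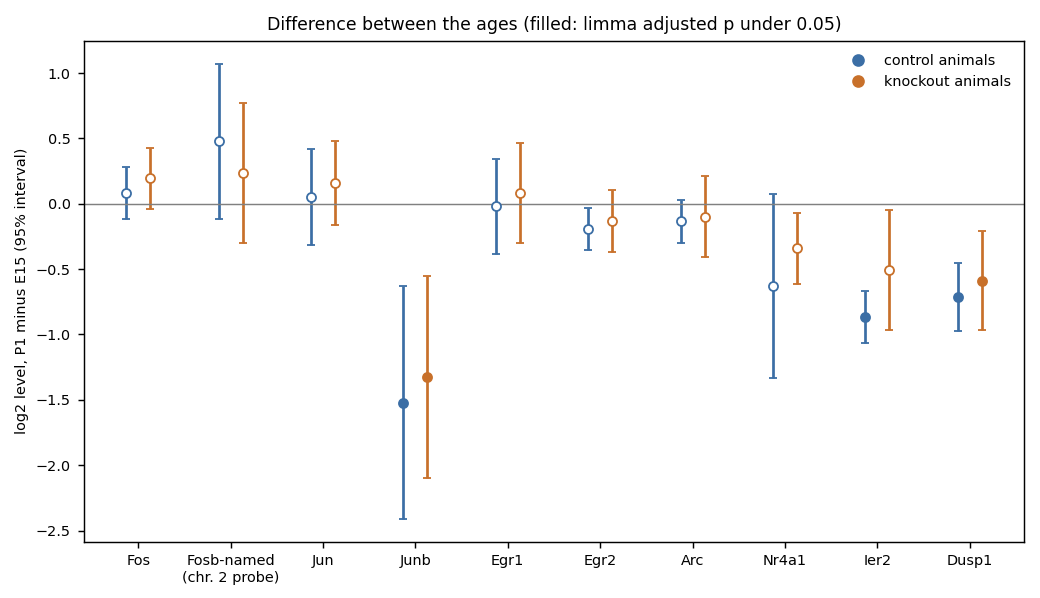
Log2 level at P1 minus E15 (y axis) for each member in control (blue) and knockout (orange) animals, as the limma estimate with its 95% interval; filled points have an adjusted p under 0.05. Junb and Dusp1 are filled in both labels and Ier2 in controls alone, where the entry named Fosb is the chromosome 2 probe.

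The start-site sequences are shown because these genes are textbook targets of SRF (at the CArG box), CREB (at the CRE, TGACGTCA) and their own products (AP-1 at TGACTCA, EGR proteins at GCGNGGGCG). RefSeq promoter windows of GRCm38.p6 were found for 7 of the 10 members: Jun, Fosb, Junb, Egr2, Fos, Nr4a1 and Dusp1. The 250 bases before each start were searched on both strands, and matches are in capitals. Junb and Dusp1 were called lower at P1 in both labels; Nr4a1 and Egr2 were not called.
Dusp1, chr17:26508473-26508722, minus strand: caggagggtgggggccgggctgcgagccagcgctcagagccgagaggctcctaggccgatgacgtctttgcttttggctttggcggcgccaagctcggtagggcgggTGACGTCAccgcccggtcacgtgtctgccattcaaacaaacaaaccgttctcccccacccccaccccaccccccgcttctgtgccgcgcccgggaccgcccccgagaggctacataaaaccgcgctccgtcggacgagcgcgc
Junb, chr8:84978749-84978998, minus strand: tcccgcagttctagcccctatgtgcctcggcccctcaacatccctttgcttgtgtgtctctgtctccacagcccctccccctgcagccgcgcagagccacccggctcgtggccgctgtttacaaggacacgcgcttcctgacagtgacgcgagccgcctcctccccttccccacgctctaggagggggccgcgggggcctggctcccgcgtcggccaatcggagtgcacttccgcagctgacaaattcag
Nr4a1, chr15:101266596-101266845, plus strand: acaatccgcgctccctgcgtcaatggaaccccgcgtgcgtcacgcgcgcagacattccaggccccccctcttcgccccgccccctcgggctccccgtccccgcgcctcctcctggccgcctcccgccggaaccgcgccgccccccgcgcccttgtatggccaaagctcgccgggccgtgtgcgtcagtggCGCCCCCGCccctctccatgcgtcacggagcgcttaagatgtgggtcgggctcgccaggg
Egr2, chr10:67537619-67537868, plus strand: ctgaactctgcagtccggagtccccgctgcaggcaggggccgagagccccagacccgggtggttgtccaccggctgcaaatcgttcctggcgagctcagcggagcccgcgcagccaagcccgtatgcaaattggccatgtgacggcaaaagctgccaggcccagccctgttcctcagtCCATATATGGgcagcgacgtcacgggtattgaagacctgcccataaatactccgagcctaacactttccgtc
The Dusp1 window held the CRE letters 143 bases before the start, a motif found in 1.55% of 32851 windows of all genes. Egr2 held a CArG box (1.47% of windows), at 72 bases before this start. The 7 members had 11 windows in all, and Egr2 had several, of which 1 is shown. Its window that begins at 67535249 held none of the motifs. A gene with several windows has more chances of a match than the share per window. Nr4a1 held the EGR letters (4.7% of windows) 60 bases before the start, as did Fosb at 50 bases. A match is a description of the letters, not evidence of binding, and in the members' windows no motif overlapped another. None of the 4 motifs, the AP-1 letters with 4.46% of windows included, was in the Junb, Jun or Fos window, which says only that those letters are not in these 250 bases.

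By the brightest probe of a gene, the SD over a group was smaller at P1 than at E15 for each member except Fos in both labels and Egr2 in controls. These SDs were not tested against each other. In knockouts the dimmer Junb probe had an SD of 0.23 at E15 and 0.27 at P1. The E15 arrays were scanned on 3 days and the P1 arrays on 1. A P1 control value may also hold more than 1 brain, so the SDs do not measure the spread between animals alone. Across the 6 E15 controls the SD of a member ran from 0.10 (Egr2) to 0.90 (Junb) with a median of 0.26, and 6 of 10 members exceeded the median feature SD of 0.18. Junb was more variable than 99.3% of 24074 features in the E15 controls, Nr4a1 (SD 0.71) than 98.5% and the chromosome 2 probe named Fosb (SD 0.58) than 97.0%. Fos (SD 0.10) and Egr2 lay in the lower part, above 22.9% and 20.2% of features. At P1 Fos was wider, with an SD of 0.18 in controls and 0.24 in knockouts, above 67.9% and 79.5% of features, and Egr2 stayed at 0.10 in controls. In the P1 controls the median member SD was 0.16 and the median feature SD 0.13, with Jun the widest member (0.24). The E15 knockouts had a median member SD of 0.31, with 8 of 10 members above the median feature SD of 0.22, and the P1 knockouts 0.13 with 4 of 10 above 0.15.

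Knockout over control was read on the same array, which removes an array's own offset. At E15 no member was called: 0 of 24104 features (0%) passed limma's adjusted test, while 1631 had an unadjusted p under 0.05, Ier2 the only member among them. Of the members 9 of 10 had a mean below 0 (median -0.07), beside 53.6% of all features (median -0.01). Of these means, those of Fos, Junb, Egr1 and Egr2 were above 0 without replicates 3 and 4. Means of ratios here and below are limma estimates, which at E15 allow for shared controls, so they can differ slightly from plain averages. Ier2 stood at -0.27, -0.25, -0.68, -0.72, 0.18, -0.76, -0.16 and 0.07 in replicates 1 to 8, below 0 in 6 of 8, with a mean of -0.32 (SE 0.12, unadjusted p = 0.0262, adjusted p = 0.729). Replicates 3 and 4, with 1 array each, and replicate 6 were the lowest. Without replicates 3 and 4 the mean was -0.20 (SE 0.13, unadjusted p = 0.151).

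Nr4a1 was split by scan day at E15. In replicates 1 to 4, scanned on day 3, knockout over control was -1.0, -0.55, -0.87 and -0.87, and in replicates 5 to 8, scanned on days 1 and 2, it was 0.56, 0.13, 0.06 and 0.61. Every replicate of the first set was below 0 and every replicate of the second above it, averaged over dyes where both were run. With the knockout in Cy5, replicates 6 and 7 read -0.36 and -0.10, and in Cy3 0.62 and 0.22. The limma estimate over all 8 was -0.23 (SE 0.22, adjusted p = 0.817). Refitted on the arrays of day 3 alone it was -0.88 (SE 0.09, adjusted p = 0.162), and on those of days 1 and 2 it was 0.34 (SE 0.12, adjusted p = 0.778). In the day 3 refit the dye effect subtracted from replicates 3 and 4 came from the day 3 arrays alone, so -0.88 is not the average of the values above. Controls 3 and 6 served on both sides of this split. Against control 3 the arrays gave -0.46 on day 3 (knockout 2) and 0.50 and 0.72 on days 1 and 2 (knockout 8), and against control 6 they gave -1.18 on day 3 (knockout 1) and -0.10 and 0.22 on day 2 (knockout 7), before any dye averaging. With the control animal held fixed, the day 3 arrays thus still read lower. The control reading itself was not fixed for control 3, whose RNA in Cy3 read 7.76 on day 1 and 9.04 on day 3. That of control 6 in Cy3 read 8.49 on day 2 and 8.41 on day 3. The part of the control channel in the split was not tested. Each knockout animal was scanned on 1 side of the split, so scan day and knockout animal cannot be told apart.

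The other members scattered about 0 at E15. Junb ran from -1.28 in replicate 3 to 0.49 in replicate 5, with 4 of 8 above 0 (mean -0.06, SE 0.19, adjusted p = 0.946). The single array of replicate 3 read -0.65 before the average dye effect was subtracted, and without the single-array replicates 3 and 4 the Junb mean was 0.19 (SE 0.09, unadjusted p = 0.0842). Egr1 ran from -0.78 to 1.22, the highest in replicate 8 (mean -0.01, SE 0.20, adjusted p = 0.994). Without the arrays of control 1 and of knockouts 4 and 8 its mean was -0.03 (SE 0.10). Dusp1 was below 0 in 6 of 8 replicates (range -0.60 to 0.31, mean -0.17, adjusted p = 0.729), as was Arc (range -0.55 to 0.14, mean -0.08, adjusted p = 0.813). Jun had a mean of -0.09, Egr2 of -0.04, Fos of -0.03, the chromosome 7 Fosb probe of -0.11 and the chromosome 2 probe of 0.05, with adjusted p from 0.817 to 0.966.

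**Figure D4:**
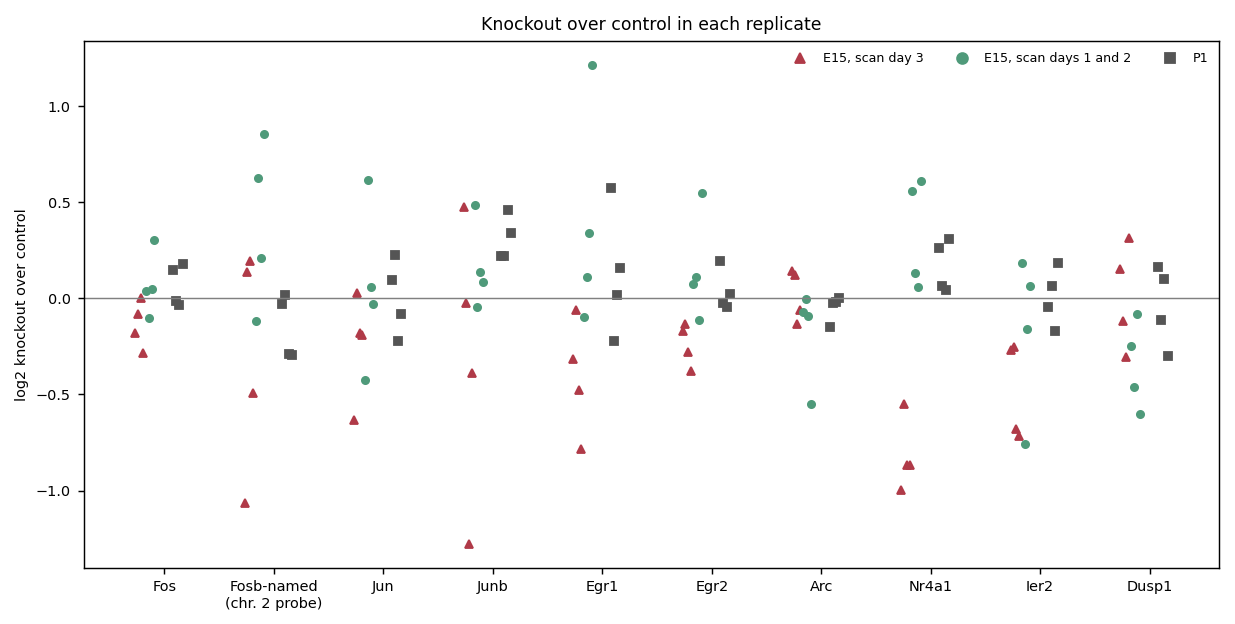
Log2 knockout over control (y axis) of each member in each replicate: E15 replicates of scan day 3 as red triangles, E15 replicates of scan days 1 and 2 as green circles and P1 replicates as grey squares. Nr4a1, averaged over dyes where both were run, lies below 0 in the 4 replicates of day 3 and above 0 in the other E15 replicates and at P1. Junb, averaged over dyes, lies above 0 in all 4 P1 replicates.

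At P1 0 of 24130 features (0%) were called by limma, with 2297 at an unadjusted p under 0.05, Junb and Nr4a1 among them. Averaged over dyes, Junb stood at 0.22, 0.22, 0.46 and 0.34 in replicates 1 to 4, above 0 in 4 of 4 (mean 0.31, SE 0.06, 95% interval 0.16 to 0.46, unadjusted p = 0.00267, adjusted p = 0.433). Single arrays of this probe differed by dye. With the knockout in Cy5 they read 1.04, 0.88, 0.92 and 0.93, and with the knockout in Cy3 -0.60, -0.44, 0.004 and -0.25. The Junb values above 0 thus hold for the dye averages and not for each array. The dimmer Junb probe gave dye averages of 0.54, -0.19, 0.37 and -0.16, above 0 in 2 of 4 (mean 0.14, SE 0.14, adjusted p = 0.78), so the probes differed on this point. Nr4a1, averaged over dyes, stood at 0.26, 0.06, 0.04 and 0.31, also above 0 in 4 of 4 (mean 0.17, SE 0.06, unadjusted p = 0.0436, adjusted p = 0.512). With the knockout in Cy5 its arrays read -0.03, 0.06, -0.07 and 0.16, and in Cy3 0.56, 0.06, 0.15 and 0.45. Its values above 0 thus also hold for the dye averages and not for each array. Egr1 was 0.57 in replicate 1 and -0.22, 0.02 and 0.16 in the others (mean 0.13, adjusted p = 0.799), and the knockout of replicate 1 also had the highest forebrain marker level of its group, 8.98 against a median of 8.19, whose part in this was not tested. Means of the other members lay between -0.15 (the chromosome 2 probe) and 0.07 (Fos), and 95% intervals for Ier2 (-0.16 to 0.18) and Dusp1 (-0.26 to 0.19) held 0.

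The change in knockout over control between the ages was tested directly. No member was called, and 2 of 22817 features (0.00877%) were. The largest member estimates were 0.39 for Nr4a1 (95% interval -0.31 to 1.09, adjusted p = 0.944), 0.37 for Junb (-0.23 to 0.97, adjusted p = 0.943) and 0.33 for Ier2 (-0.07 to 0.73, adjusted p = 0.934), so these intervals hold both 0 and sizeable differences. Of the members 9 of 10 were above 0 (median 0.12), beside 54.9% of features (median 0.01).

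The wider set of 25 other immediate early genes was also tested in control brains, with 7 called lower and 2 called higher at P1 and a median of -0.19. The lower ones with the smallest p were Ccn1 (a secreted matrix protein, -0.60), Jund (an AP-1 subunit, -1.04), Ier5 (-1.52), Btg2 (an antiproliferative cofactor, -0.88) and Csrnp1 (-0.42), with adjusted p from 0.000306 to 0.00464. Egr4 (0.43, adjusted p = 0.00965) and Klf6 (0.49, adjusted p = 0.0233), zinc finger factors, were the higher ones. In the knockouts 5 of 25 were lower and 1 higher, and Jund (-1.25), Ier5 (-1.28), Btg2 (-0.84) and Ccn1 (-0.54) were called lower there too, with adjusted p from 0.000549 to 0.0048. As for the members, these shares stand against 22.6% lower and 12.6% higher of all features in controls, and 15.7% and 10.9% in knockouts.

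Of 15 measured activity effectors, the genes that carry out the later response, 2 were higher and 3 lower at P1 in controls (median -0.15), shares near the 12.6% and 22.6% of all features. Bdnf, a neuronal growth factor, rose by 0.58 and Scg2, a granin of dense-core vesicles, by 1.02 (adjusted p = 0.000577 and 0.00212). Gadd45g, a stress and DNA demethylation cofactor, fell by 1.44, the kinase Plk2 fell by 0.84 and the kinase Sik1 fell by 0.37 (adjusted p from 0.00194 to 0.0149).

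Of 11 measured MAP kinase feedback genes, 2 were higher and 4 lower in controls (median -0.20), beside 12.6% and 22.6% of all features, and with so few genes no difference is read from these counts. Dusp4 fell by 1.55, Spry2, a receptor tyrosine kinase inhibitor, fell by 0.81, Dusp14 fell by 0.61 and Dusp6 fell by 0.57, with adjusted p from 0.000231 to 0.0155. Dusp2 rose by 1.41 and Spred1 by 0.67 (adjusted p = 0.00155 and 0.000489). The phosphatases related to Dusp1 therefore did not all move as it did.

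Of 24 measured upstream regulators, 6 were higher and 6 lower in controls (median -0.11), beside 12.6% and 22.6% of all features. The share called lower is near that of all features. The share called higher lies above it, a difference that was not tested. Srf, which binds the CArG box, fell by 0.59 (adjusted p = 0.00563), as did its partner Elk3 (-0.49), the CREB relative Atf1 (-0.47), the kinase Mapk3 (-0.38) and the CREB coactivator Crtc2 (-0.31), with adjusted p from 0.00413 to 0.0216. Among the higher ones were the calcium-dependent kinases Camk4 (1.44) and Camk2b (0.89), the transcription factor Mef2c (1.76) and the MAP kinase pathway members Map2k1 (0.61) and Mapk9 (0.32) (adjusted p from 8.28e-05 to 0.0181). Creb1 itself differed by 0.01 (adjusted p = 0.97).

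Marker RNA of several cell types differed between the ages in the same control brains. Numbers of cells and RNA per cell cannot be told apart here. Of all features 12.6% were called higher and 22.6% lower. Of 15 postmitotic neuron markers 11 were called higher at P1 and 1 lower (median 1.09), of 10 astrocyte markers 8 higher (median 0.85), of 12 neural progenitor markers 7 lower and 1 higher (median -0.48), of 12 meninges and fibroblast markers 5 lower (median -1.15) and of 6 measured erythroid markers 5 lower and 1 higher (median -0.75). Their part in the falls of Ier2, Dusp1 and Junb was not tested. Among heat shock genes, which respond to handling of tissue, 5 of 13 were higher and 2 lower (median 0.16).

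The members did not vary as 1 unit between animals. After each group's mean was taken off, the correlation of a member with the mean of the other members over the 22 animals, which share arrays, ran from -0.37 (Arc) to 0.69 (Nr4a1), with Egr1 at 0.51. The genes most like the members' mean deviation among 21971 features were Rpl39l (r = 0.90), Svil (0.88), Anpep (0.87), Lmod3 (0.87), Myog (0.86), Omd (0.86), Emp2 (0.86) and A630012P03Rik (0.85), with 2 unnamed probes at 0.86. The mean deviation was highest in E15 control 1 at 0.44, and without the 2 animals farthest from the median these correlations were 0.61 to 0.83, so they rest in part on those animals.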

How the data were processed

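RNA from whole brain was compared on 22 dual-colour arrays, 14 at E15 and 8 at P1. Per the labels' protocols, total RNA was amplified linearly and labelled with Cy3 or Cy5. Mean, background and processed intensity per spot and the log10 ratio of red over green were made, per the file headers, by the scanner software (Agilent Feature Extraction 8.1.1.1 at E15 and 8.5.1.1 at P1). The deposited series matrix repeats those log10 values.

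Mean signals were corrected by normexp (offset 50) and loess within arrays in limma 3.58.1 (R 4.3.3, statmod 1.5.0). Channel levels followed Aquantile normalization, which sets all arrays to 1 distribution. Outlier spots were left out (none on the members). Arrays of an animal were averaged over dyes. For animals with 1 dye, the mean dye effect of that age was taken off. A gene was its brightest probe, kept where well above background in at least 50% of an age's channels. Tests used lmFit and eBayes, with Benjamini-Hochberg adjustment over all features and a threshold of 0.05. Sets of E15 replicates sharing control animals were a random block in the ratio fits (duplicateCorrelation on every 8th feature). Replicates are those of the labels, so p-values measure the spread between these samples. Spots well above background made up 68.6% to 93.0% of an E15 channel and 62.3% to 95.1% of a P1 channel, and the number of arrays limits the precision.

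Of 41174 probes, 21445 were named by accession, 5431 by symbol and 4636 by synonym through RefSeq genes of GRCm38.p6, 1933 kept the file's name, and 7729 had none. All members were named. From the 4 lists of related genes, up to 5 genes per direction with the lowest adjusted p in controls were named. The genes most like the members were the 10 features with the highest correlation to their mean deviation. The scripts were tested on simulated data. Plots came from Python 3.11.15 and matplotlib 3.10.9. Alternatives were other background corrections, normalizations, filters, probes, dyes, blocks and leaving out each animal. The members and lists were chosen with earlier results of these data known.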

Additional observations from a re-analysis of the deposited data

Results flagged for a closer look

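In 78 sets of 4 to 8 values (each probe in each group and each ratio), 9 had a sample far from the others by Dixon's ratio at the 95% level, of which about 1 in 20 is expected by chance. Fos in P1 knockout 4 was at 6.68, with the next value at 6.24. The chromosome 2 probe named Fosb in E15 control 1 was at 9.87 (next 8.75). The dimmer Junb probe was at 8.86 in E15 control 1 (next 7.82) and at 7.36 in E15 knockout 4 (next 7.75). Egr1 in E15 knockout 8 was at 7.73 (next 7.00). Arc knockout over control was -0.55 in E15 replicate 8 (next -0.14) and -0.15 in P1 replicate 1 (next -0.02). Nr4a1 in the P1 control of replicate 2 was at 7.99 (next 7.78). Dusp1 in E15 control 4 was at 8.40 (next 8.79). E15 control 1 and knockout 8 hold 4 of these values and are the brains with the most muscle and meninges marker signal; the part of those tissues in the values was not tested.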

How the results depend on the processing

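In control brains the members called between the ages numbered 2 to 4 in all 23 alternatives against 3 in the main setting, and Ier2 and Dusp1 were called in each. In knockouts the count was 2 in the main setting, 4 with Cy3 channels only, 1 with Cy5 channels only and 0 with scan day as a random block. Leaving out 1 knockout at a time gave 1 to 3. With the replicate number as a block (replicate block, numbers 1 to 4 of both ages) it was 2, and 0 for the change in knockout over control between the ages. Numbers do not pair the samples: same-numbered knockouts had correlations of -0.14, 0.06, 0.11 and 0.10. Knockout over control gave 0 called members in each alternative. Counts of called features moved more: 4481 with scan day as a random block and 12068 with every probe a feature against 8703 in controls, and 3092 and 9454 under the same settings against 6570 in knockouts. For the change between the ages they ran from 0 to 30, the highest without P1 knockout 4. Signs of uncalled members changed in 11 of 229 control, 5 of 259 knockout, 30 of 219 E15, 11 of 118 P1 and 17 of 268 between-age values, and no called value turned. The scan day splits and the sets without E15 control 1 and knockouts 4 and 8 were chosen after seeing the data. For P1 ratios, which lie in 1 scan day, no block was possible. Fos, near background, limits what its probe can show.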
